A study of Mus musculus with 9 samples.

Results

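The comparison described here sets skin irradiated with UVB and given hCOL3A1 against skin irradiated with UVB and given saline. The UVB_hCOL3A1 and UVB_Saline libraries were chosen by their titles, which gives 6 of the 9 libraries of the series, 3 per group. Of 57180 genes in the count table, 17168 were expressed highly enough to be tested. They were read as 70 lists of compartments, cell types and pathways.

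The skin came from nude mice on the BALB/c background, which lack a thymus and most hair and have few T cells but keep B cells and innate immunity. All irradiated animals received UVB on the back every other day over 8 weeks. The dose began at 60 mJ/cm2, which is 1 minimal erythemal dose, for the first 2 weeks. It was 120 mJ/cm2 in week 3, 180 mJ/cm2 in week 4 and 240 mJ/cm2, or 4 minimal erythemal doses, in weeks 5 to 8. Skin was collected at day 28, and the labels do not say from which event that day is counted. UVB_hCOL3A1 stands for the human type III collagen gene, delivered as mRNA according to the title of the series. Its dose, carrier and route are not stated in the labels. The control received saline, and no group with the carrier alone was analysed here, so hCOL3A1 and its vehicle cannot be told apart. NoUVB skin (3 libraries) serves below as a level for reference.

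Type III collagen is a fibrillar collagen that fibroblasts lay down together with type I collagen. Its chains are hydroxylated and folded in the endoplasmic reticulum, trimmed outside the cell by procollagen proteinases and crosslinked by lysyl oxidases. Repeated UVB exposure is known to fragment dermal collagen, to deposit disordered elastic material and to thicken the epidermis. An mRNA delivered to skin can also be sensed as foreign nucleic acid, which induces interferon.

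The 6 irradiated libraries held 9276993 to 12927411 estimated counts. The 18S ribosomal RNA gene Rn18s took 34.3% to 45.1% of them, leaving 5551208 to 7402229 for other genes. Keratinocyte genes (Krt5, Krt14, Krt1, Krt10) and fibroblast genes (Col1a1, Col1a2, Dcn, Pdgfra) were present in every library, as the label of skin calls for. Principal components were taken over all 9 libraries from log2 CPM (read counts scaled to the TMM-adjusted library size). On the first, 31.6% of the variance, UVB_Saline 3 lay at 55 and UVB_hCOL3A1 3 at 39.8. The other 4 irradiated libraries lay between -33.5 and 10. On the second (16.4%) the saline libraries lay at 26.4, 10.1 and 29.8 and the hCOL3A1 libraries at -17.3, -38.4 and -13.6. UVB_Saline 3 stood apart from the other saline libraries in interferon, antigen presentation and stress keratin genes. Its summed level of hair shaft and inner root sheath genes was also low, at 1365 CPM against 9643 and 5890 CPM in UVB_Saline 1 and 2. A single other library moved some lists as well. Values without a library are therefore given beside the lists that it moved most. Because the labels do not tie libraries to animals, the spread behind each p-value is that between libraries and may be technical in part.

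With 3 libraries per group, 0 genes passed an adjusted p of 0.05 in either direction in the edgeR quasi-likelihood test, and the smallest adjusted p was 0.13. No gene below is therefore called changed. An unadjusted p under 0.05 was reached by 1025 genes higher with hCOL3A1 (5.97% of those tested) and 913 lower (5.32%). All 3 hCOL3A1 libraries lay above all 3 saline libraries for 1536 genes (8.95%) and below them for 1430 (8.33%). The log2 difference, hCOL3A1 minus saline, was positive in 46.1% of all genes and negative in 53.9%, with a median of -0.02. DESeq2, a second count model, called 125 genes higher (1.03% of 12102) and 48 lower (0.397%), and all 173 had an unadjusted edgeR p under 0.05. On the genes that edgeR tested, DESeq2 called 1.13% of 11498 higher and 0.426% lower. Without UVB_Saline 3 edgeR itself called 71 genes higher (0.402% of 17644) and 7 lower (0.0397%), and an unadjusted p under 0.05 was reached by 9.39% higher and 5.37% lower. These shares are the background against which the counts of each list are set below.

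**Figure D1:**
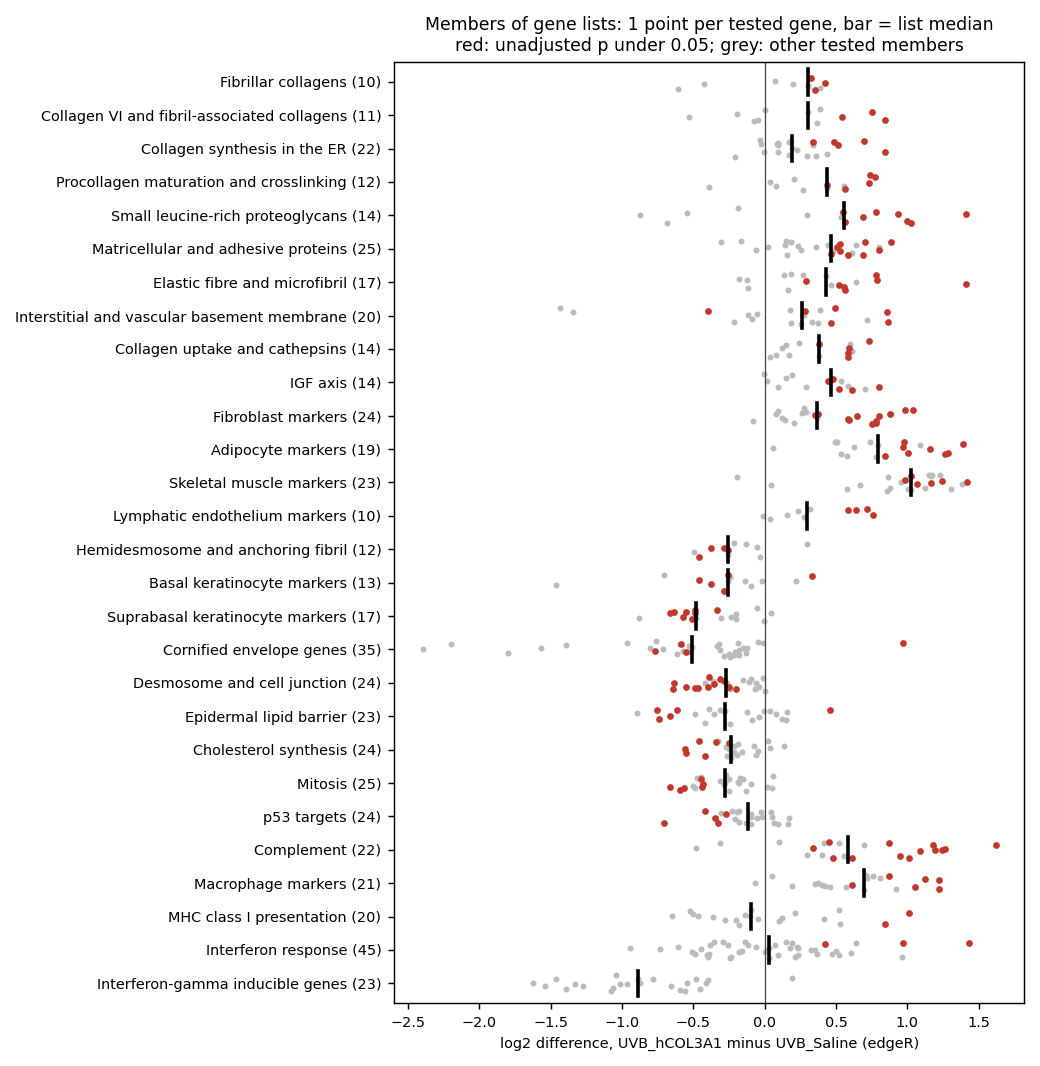
Log2 difference, UVB_hCOL3A1 minus UVB_Saline, of every tested member of 28 gene lists (number tested in parentheses), with red points at an unadjusted p under 0.05 and a black bar at the list median. Matrix, fibroblast, adipocyte, muscle, complement and macrophage lists lie to the right of 0 (medians 0.19 to 1.03), epidermal, cholesterol and mitosis lists to the left (-0.51 to -0.24).

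Among the fibrillar collagens, 8 of 10 tested genes had a positive difference (median 0.30), and 3 had an unadjusted p under 0.05, all higher. This count was 1 without UVB_hCOL3A1 2 and 5 without UVB_Saline 3 or UVB_hCOL3A1 1. The 3 genes were the main collagens of the dermis, and each had its 3 hCOL3A1 libraries above the 3 saline libraries. Endogenous Col3a1, the mouse gene for the same protein, was at 1272, 1509.6 and 1433 CPM in UVB_Saline 1, 2 and 3 and at 1814, 2006 and 1827 CPM in UVB_hCOL3A1 1, 2 and 3. Its log2 difference was 0.42 ± 0.11 (SE), with an adjusted p of 0.25 in edgeR and 0.026 in DESeq2. Non-irradiated skin was at 1172, 1201 and 1418 CPM, so the hCOL3A1 libraries lay above both other groups.

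Col1a1, the major chain of type I collagen, was at 2636, 2656 and 2575 CPM with saline and 3048, 3797 and 3219.9 CPM with hCOL3A1. Its partner chain Col1a2 was at 1189, 1307 and 1237 and 1445, 1740.2 and 1492 CPM in the same order. The log2 differences were 0.36 ± 0.13 and 0.33 ± 0.11 (SE; edgeR adjusted p 0.38 and 0.35). The summed level of the 3 collagens was 1.29-fold higher (5097, 5473 and 5246 CPM against 6307, 7543 and 6539 CPM; two-sided exact permutation p = 0.1, the smallest that 3 against 3 libraries allow). Col3a1 per Col1a1 count was 0.482, 0.568 and 0.557 with saline and 0.595, 0.528 and 0.567 with hCOL3A1, and these ranges overlap (two-sided exact permutation p = 0.6). The count table has no row for the human transcript, and whether any of its reads were counted as mouse Col3a1 was not tested. The minor fibrillar chains were less separated, Col5a1 at 0.30 ± 0.14 and Col5a2 at 0.39 ± 0.19 (log2 ± SE), both with overlapping groups.

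The proximal promoter of Col3a1 is shown because it drives the endogenous gene described above. The 120 bases before its RefSeq start lie at chr1:45311418-45311537 (GRCm38.p6, + strand). Capitals mark TATAAA, searched on both strands with CCAAT and GGGCGG, which were not matched in this stretch.
Col3a1: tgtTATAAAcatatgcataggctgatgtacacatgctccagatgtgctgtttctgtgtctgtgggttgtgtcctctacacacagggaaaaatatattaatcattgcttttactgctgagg
TATAAA occurs in the 250 bases before the start in 12.4% of 32851 RefSeq promoters. A match is a description of letters, not of a site in use.

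Beaded and fibril-associated collagens differed in the same direction (3 of 11 at an unadjusted p under 0.05, all higher, median 0.30). Col14a1, which coats collagen fibrils, was at 44.1, 58 and 60.1 CPM with saline and 86.5, 100.1 and 87.1 CPM with hCOL3A1. Col6a3, a chain of microfibrillar type VI collagen, was at 291, 323 and 346 and 387, 527 and 484 CPM. Both genes were higher in every hCOL3A1 library, at log2 differences of 0.75 ± 0.22 and 0.54 ± 0.15 (SE; edgeR adjusted p 0.28 and 0.25). Col6a1 was at 0.37 ± 0.20 with overlapping groups. The list median was 0.05 without UVB_Saline 1, 0.14 without UVB_hCOL3A1 3 and 0.59 without UVB_Saline 3, and the count was 5 without UVB_Saline 3.

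Genes that make and mature collagen lay mostly higher. Of 22 genes for collagen synthesis in the endoplasmic reticulum, 18 had a positive difference (median 0.19), 5 had an unadjusted p under 0.05 (3 without UVB_Saline 1, UVB_hCOL3A1 2 or UVB_hCOL3A1 3 and 9 without UVB_Saline 3) and 10 were higher in all 3 libraries. Creb3l1, a membrane-bound transcription factor that activates collagen genes, was at 26.4, 32.2 and 28.2 CPM with saline and 39.2, 54.9 and 46.8 CPM with hCOL3A1. Fkbp7, a prolyl isomerase of the endoplasmic reticulum, was at 4.52, 5.75 and 4.99 and 8.16, 10.3 and 8.96 CPM. Serpinh1, the collagen chaperone HSP47, was at 79.4, 82.3 and 80 and 106, 134 and 106 CPM. None of these 3 genes overlapped between groups, and DESeq2 called each (adjusted p 0.014, 0.039 and 0.027) where edgeR did not (0.20, 0.20 and 0.21). The prolyl hydroxylase subunit P4ha1 was at 0.36 ± 0.18 (log2 ± SE), also without overlap.

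Outside the cell, 11 of 12 maturation and crosslinking genes had a positive difference (median 0.43, or 0.26 without UVB_Saline 1), and 5 had an unadjusted p under 0.05 (3 without UVB_Saline 1 and 8 without UVB_Saline 3). Pcolce, which enhances removal of the procollagen C-propeptide, was at 25.8, 28.8 and 30.8 CPM with saline and 43.7, 54 and 48.5 CPM with hCOL3A1. The lysyl oxidase Loxl2 was at 45.1, 52.2 and 54 and 73.6, 78.6 and 71.7 CPM. Both stood clear of the saline range, at 0.78 ± 0.12 and 0.57 ± 0.10 (log2 ± SE; edgeR adjusted p 0.13 and 0.15; DESeq2 3.5e-04 and 0.0011). Lox itself was at 27.4, 45.7 and 40.1 against 46, 50.9 and 56.7 CPM, where the lowest hCOL3A1 library barely exceeded the highest saline library.

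**Figure D2:**
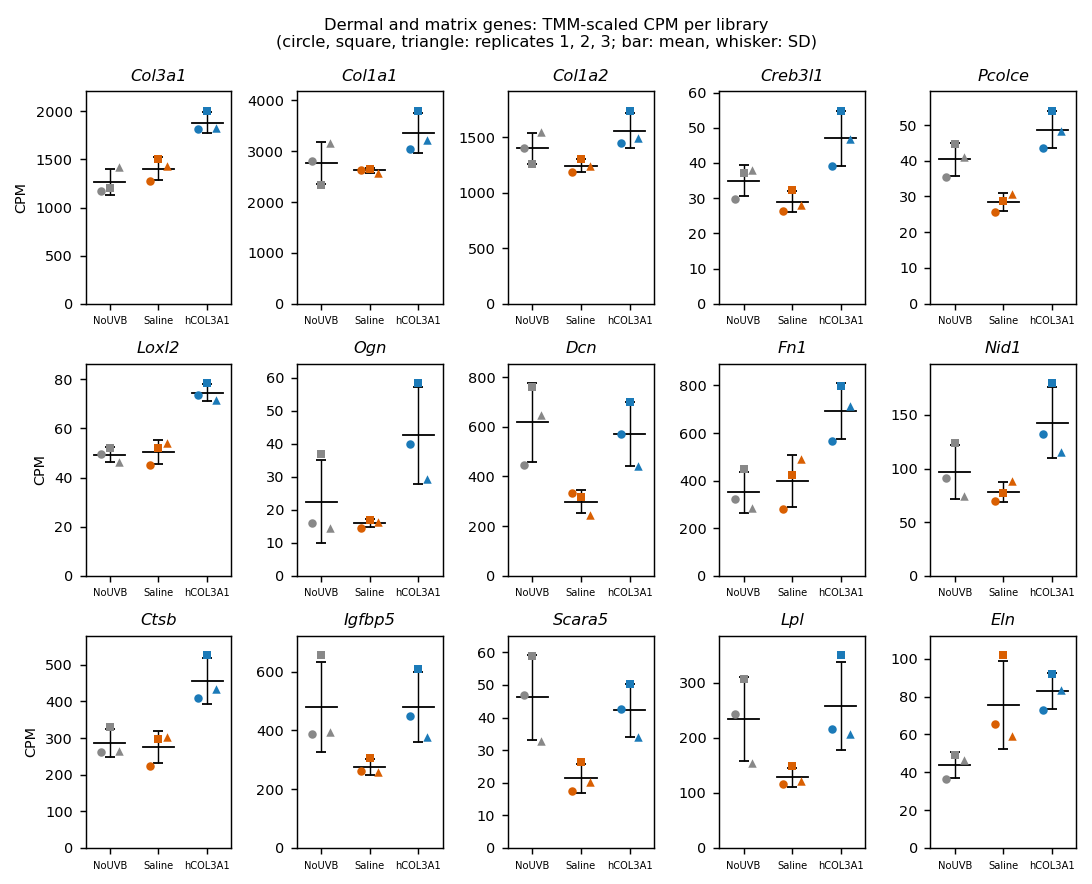
TMM-scaled CPM of 15 dermal and matrix genes in each of the 9 libraries, with the mean and SD per group. In every panel but that of Eln the 3 UVB_hCOL3A1 libraries lie above the 3 UVB_Saline libraries, and for Dcn, Igfbp5, Scara5 and Lpl the NoUVB libraries also reach the level of the hCOL3A1 libraries.

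Small leucine-rich proteoglycans, which bind collagen fibrils and set their spacing, had 8 of 14 members at an unadjusted p under 0.05, all higher (median 0.55), and DESeq2 called 4. Without UVB_hCOL3A1 2 the count was 5. Ogn, or osteoglycin, was at 14.6, 17 and 16.3 CPM with saline and 39.9, 58.4 and 29.3 CPM with hCOL3A1. Aspn, or asporin, was at 22.9, 34.6 and 29.7 and 63.4, 64.5 and 49.4 CPM. Dcn, decorin, was at 332, 317 and 246 and 569, 700.1 and 441 CPM. For Ogn and Dcn the saline libraries spread less than the hCOL3A1 libraries, of which replicate 2 was the highest. Log2 differences were 1.41 ± 0.38 for Ogn, 1.02 ± 0.20 for Aspn and 0.93 ± 0.22 for Dcn (SE), with edgeR adjusted p-values of 0.27, 0.20 and 0.22. Lum and Bgn were at 0.78 ± 0.22 and 0.56 ± 0.19 (log2 ± SE), without overlap.

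Adhesive and matricellular proteins gave 22 of 25 positive differences (median 0.46) and 9 at an unadjusted p under 0.05, all higher. That count was 14 without UVB_Saline 3 and 7 without UVB_Saline 1, UVB_Saline 2 or UVB_hCOL3A1 2. Without UVB_Saline 1, 17 of 25 were positive, and without UVB_hCOL3A1 2 the median was 0.35. Fn1, fibronectin, was at 279, 423 and 492 CPM with saline and 566, 798 and 716 CPM with hCOL3A1. Postn, periostin, was at 328, 476 and 543 and 676, 694 and 799 CPM, and Sparc, a collagen-binding glycoprotein, was at 691, 699.8 and 675 and 953, 1119 and 866 CPM. All 3 genes were higher in every hCOL3A1 library (edgeR adjusted p 0.30, 0.22 and 0.20; DESeq2 0.051, 0.022 and 0.0041). Further matrix genes were among those with the smallest p-values of the whole table. Coch, which encodes the secreted protein cochlin, was at 12.7, 7.97 and 5.64 and 24.3, 28 and 34.4 CPM, and Abi3bp, a matrix-binding protein, at 41.3, 52.4 and 53.1 and 86.5, 100.5 and 80 CPM (log2 1.72 ± 0.25 and 0.86 ± 0.13).

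Elastic fibre genes were not uniform. 7 of 17 had an unadjusted p under 0.05, all higher (median 0.43), or 3 without UVB_hCOL3A1 2. Efemp1, fibulin-3, was at 20.4, 24.3 and 19 CPM with saline and 50.7, 70.1 and 49.1 CPM with hCOL3A1, and Fbn1, fibrillin-1, was at 219, 246 and 349.7 and 350.4, 428 and 421 CPM. Neither gene overlapped, at 1.41 ± 0.22 and 0.56 ± 0.16 (log2 ± SE; edgeR adjusted p 0.13 and 0.27). Eln, which encodes the elastin core itself, was at 65.3, 102 and 59 CPM with saline and 73, 92 and 83.5 CPM with hCOL3A1. The ranges of Eln coincide, its log2 difference was 0.13 ± 0.20 (SE), and both irradiated groups lay above non-irradiated skin (36.2, 49.2 and 46.6 CPM).

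Basement membrane genes of vessels and stroma lay mostly higher, and the anchoring genes of the epidermis mostly lower. Of 20 interstitial and vascular basement membrane genes, 5 were higher and 1 lower at an unadjusted p under 0.05 (median 0.26, or 0.12 without UVB_hCOL3A1 2, when 3 were higher). Nid1, nidogen, was at 69.7, 76.9 and 88.6 CPM with saline and 133, 179.9 and 116 CPM with hCOL3A1, and the laminin chain Lamc1 was at 121, 123 and 129.5 and 165, 209.5 and 152 CPM. Both were higher in all 3 hCOL3A1 libraries (0.86 ± 0.21 and 0.49 ± 0.14, log2 ± SE). Of 12 hemidesmosome and anchoring fibril genes, 11 had a negative difference (median -0.26), 4 of them at an unadjusted p under 0.05. The median was -0.13 without UVB_Saline 3, when 9 of 12 were negative, and the count was 2 without NoUVB 1, NoUVB 2, NoUVB 3, UVB_Saline 2, UVB_hCOL3A1 1 or UVB_hCOL3A1 2. Itga6, the integrin that holds basal keratinocytes to laminin, was at 82.7, 101 and 134 CPM with saline and 80.6, 72.8 and 76.7 CPM with hCOL3A1. The lowest saline library and the highest hCOL3A1 library were close, and without UVB_Saline 3 the log2 difference moved from -0.46 to -0.23. Col17a1 was at -0.26 ± 0.11 and Col7a1, the anchoring fibril collagen, at -0.49 ± 0.25 (log2 ± SE), both with overlapping groups. Col7a1 without UVB_Saline 3 was at -0.21.

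Genes that break collagen down also lay mostly higher with hCOL3A1. Of 15 matrix metalloproteases 5 were higher and 1 lower at an unadjusted p under 0.05 (median 0.29). The median was 0.46 without UVB_Saline 2 and 0.49 without UVB_Saline 3, and the higher genes numbered 2 without UVB_Saline 1 or UVB_hCOL3A1 2. Mmp3, stromelysin 1, was at 6.88, 10.4 and 6.61 CPM with saline and 13.9, 16.5 and 13.4 CPM with hCOL3A1, against 12.8, 14.4 and 13.9 CPM without UVB. The saline libraries were thus the low group and the other groups overlapped. Mmp14, the membrane-bound collagenase, was at 0.39 ± 0.14 without overlap, and Mmp2 at 0.29 ± 0.18 and Mmp9 at 0.92 ± 0.37 with overlap (log2 ± SE). Mmp13, the main interstitial collagenase of the mouse, was at 0.513, 3.70 and 1.73 CPM and 1.75, 1.69 and 3.56 CPM, which is too low and too variable for a direction.

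Collagen uptake receptors and lysosomal cathepsins all had positive differences, 14 of 14 with a median of 0.38 and 5 at an unadjusted p under 0.05. The median was 0.21 without UVB_Saline 1, and the count was 3 without UVB_hCOL3A1 2 and 9 without UVB_Saline 3. Ctsb, cathepsin B, was at 225, 298 and 303 CPM with saline and 409, 527 and 434 CPM with hCOL3A1. Ctsk, cathepsin K, which can cut the collagen triple helix, was at 36, 58.8 and 47 and 62.6, 76.9 and 73.4 CPM. The groups did not overlap for either gene (edgeR adjusted p 0.20 and 0.27). The protease inhibitors Timp1 and Timp2 were higher too, Timp1 at 1.64, 2.71 and 3.47 against 4.12, 7.06 and 5.07 CPM and Timp2 at 135, 175 and 161 against 202, 240.1 and 202 CPM.

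Of the growth factor pathways, the IGF axis had 13 of 14 positive differences (median 0.46), 5 at an unadjusted p under 0.05 and 7 higher in all 3 libraries. Without UVB_hCOL3A1 2 the IGF median was 0.27, and the count was 2 without UVB_hCOL3A1 2 and 3 without UVB_Saline 1. Igf1, the ligand, was at 24.2, 38.7 and 45.4 CPM with saline and 50.7, 61.9 and 53 CPM with hCOL3A1. The binding protein Igfbp5 was at 263, 306 and 258 and 449.8, 610.5 and 377 CPM. Both were separated by group, at 0.61 ± 0.26 and 0.80 ± 0.23 (log2 ± SE; edgeR adjusted p 0.43 and 0.29). Imprinted growth genes gave 16 of 17 positive differences (median 0.47) and 5 at an unadjusted p under 0.05, all higher (3 without UVB_Saline 1 and 8 without NoUVB 3 or UVB_Saline 2). Grb10, which restrains insulin and IGF receptors, was at 26.3, 31.2 and 32.2 CPM with saline and 43.5, 58.4 and 43.2 CPM with hCOL3A1, and the non-coding RNA H19 was at 7.19, 20.1 and 12.2 and 24.6, 27.5 and 43.2 CPM.

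The TGF-beta list had a median of 0.15, with 3 of 21 at an unadjusted p under 0.05, all higher. Its median was 0.08 without UVB_Saline 1 and 0.27 without UVB_Saline 3, and the higher genes numbered 1 without UVB_Saline 1 or UVB_hCOL3A1 2 and 6 without UVB_Saline 3, beside 1 lower without UVB_Saline 3. Tgfb1, the ligand, was at 22.4, 26.6 and 34.1 CPM with saline and 32.7, 37.6 and 44.9 CPM with hCOL3A1, where 1 hCOL3A1 library lay within the saline range. Ccn2, a target that follows TGF-beta signalling in fibroblasts, was at 13.1, 17.1 and 22.3 and 16, 18.8 and 23.9 CPM, and its ranges overlap. Among EGF receptors, which are mainly epidermal in skin, Erbb2 was at 60, 50.6 and 42.9 CPM with saline and 36.7, 37.7 and 32.9 CPM with hCOL3A1, lower in all 3 libraries (log2 -0.52 ± 0.13, edgeR adjusted p 0.22).

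Markers of stromal cells differed in the same direction as the matrix genes. The fibroblast list itself holds matrix genes such as Col14a1 and Lum, so the 2 sets are not separate. In bulk skin a change in the number of cells of a type and a change in RNA per cell cannot be told apart. Fibroblast markers had 23 of 24 positive differences (median 0.37, or 0.59 without UVB_Saline 3), 12 at an unadjusted p under 0.05 and 14 higher in all 3 libraries. The count of 12 was 8 without UVB_Saline 1 or UVB_hCOL3A1 2 and 15 without UVB_Saline 3. The summed level of these markers was 851 to 1182 CPM with saline and 1295 to 1657 CPM with hCOL3A1, and the part of this in the matrix differences was not tested. Pi16, a marker of adventitial fibroblasts, was at 31.8, 54 and 47.4 CPM with saline and 75.9, 109 and 89.2 CPM with hCOL3A1, and Scara5, another stromal marker, at 17.3, 26.3 and 20.3 and 42.5, 50.1 and 33.9 CPM. Both were separated by group (1.04 ± 0.28 and 0.98 ± 0.24, log2 ± SE). Dpt, dermatopontin, was also separated, at 0.80 ± 0.28. Pdgfra, a receptor on most dermal fibroblasts, was not, at 63.2, 70.7 and 96.3 against 79.4, 91.8 and 82.1 CPM.

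Adipocyte markers all had a positive difference, 19 of 19 with a median of 0.80, and 8 had an unadjusted p under 0.05. The count depended on single libraries, non-irradiated ones included, at 2 without UVB_Saline 1, 3 without UVB_hCOL3A1 2, 4 without UVB_Saline 3, 13 without UVB_Saline 2 and 15 without NoUVB 2, and 18 of 19 were positive without UVB_Saline 3. Their summed level was 1003 to 1472 CPM with saline and 1684 to 2802 CPM with hCOL3A1. Lpl, lipoprotein lipase, was at 116, 148 and 121 CPM with saline, 217, 351 and 208 CPM with hCOL3A1 and 243, 306 and 154 CPM without UVB. Pparg, the master regulator of fat cells, was at 9.65, 14.8 and 8.02 and 18.4, 24.5 and 15.9 CPM in the irradiated groups. UVB_hCOL3A1 2 was the highest irradiated library for both. The adipokine Adipoq was at 1.29 ± 0.55 without overlap and Lep, leptin, at 1.09 ± 0.50 with overlap (log2 ± SE). How deep each piece of skin was cut is not in the labels, and the part of fat content in the matrix differences was not tested.

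Skeletal muscle markers, from the thin muscle sheet under mouse skin, had the highest median among the lists drawn in the plot of list members (1.03, 22 of 23 positive). All 3 hCOL3A1 libraries were above all 3 saline libraries for 17 of them, while 6 had an unadjusted p under 0.05. That count was 1 without UVB_hCOL3A1 2 or UVB_hCOL3A1 3, 3 without UVB_Saline 1 or UVB_Saline 3 and 14 without NoUVB 1. Acta1, skeletal alpha-actin, was at 68.5, 183 and 139 CPM with saline and 212, 310.4 and 394 CPM with hCOL3A1. Casq1, a calcium store protein of muscle, was at 4.72, 10.2 and 6.94 and 13.9, 13.5 and 17.7 CPM. UVB_Saline 1 was the lowest irradiated library for both genes. The summed level of the list was 986 CPM in UVB_Saline 1, 3914 and 2950 CPM in UVB_Saline 2 and 3, and 4215 to 6277 CPM with hCOL3A1, and its part in other differences was not tested.

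Lymphatic endothelium gave 9 of 10 positive differences (median 0.30) and 4 at an unadjusted p under 0.05. The median was 0.18 without UVB_Saline 1 and 0.52 without UVB_Saline 3, when 7 were higher. Ccl21a, the chemokine by which lymphatic vessels draw dendritic cells, was at 28.9, 29.3 and 26.6 CPM with saline and 42.5, 47.4 and 49.7 CPM with hCOL3A1, and it had the smallest p of all genes named here (log2 0.72 ± 0.10, edgeR adjusted p 0.13, DESeq2 3.3e-05). Mouse Ccl21 genes are near-identical copies, so the split of reads among them is uncertain. Prox1, the transcription factor that defines lymphatic identity, was at 7.29, 9.21 and 7.81 and 12, 12.3 and 12.1 CPM, again without overlap. Non-irradiated skin held 42, 43.5 and 45.5 CPM of Ccl21a, at the level of the hCOL3A1 libraries.

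Blood endothelium markers had 14 of 19 positive differences with a median of 0.12, 3 at an unadjusted p under 0.05, all higher, and 6 higher in all 3 libraries. The median was 0.01 without UVB_Saline 1 or UVB_hCOL3A1 2, 0.19 without UVB_hCOL3A1 3, 0.23 without UVB_hCOL3A1 1 and 0.33 without UVB_Saline 3, and the count 5 without NoUVB 1 or NoUVB 2. Cd93, a surface protein of endothelial cells, was at 25, 38.4 and 37.9 CPM with saline and 63.1, 60.7 and 56.1 CPM with hCOL3A1, and Cldn5, the tight junction claudin of vessels, was at 3.49, 3.95 and 3.90 and 5.79, 7.43 and 6.37 CPM. Neither overlapped between groups (0.83 ± 0.20 and 0.78 ± 0.20, log2 ± SE; edgeR adjusted p 0.22 and 0.22), and DESeq2 called Cd93 (adjusted p 0.021). Pecam1, which all vessels carry, was at 0.12 ± 0.23 (log2 ± SE) with overlapping groups.

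Epidermal genes lay mostly lower with hCOL3A1. Of 24 desmosome and cell junction genes, 23 had a negative difference (median -0.27), 12 had an unadjusted p under 0.05 and 12 were lower in all 3 libraries. DESeq2 called 5 of them. Dsc1, a desmosomal cadherin of the upper epidermis, was at 289.6, 255 and 265 CPM with saline and 179.9, 199.6 and 171 CPM with hCOL3A1. Perp, a desmosomal membrane protein and p53 target, was at 396, 362 and 342 and 231, 229 and 246 CPM. Pkp1, a plakophilin that links cadherins to keratin, was at 383, 459.7 and 501 and 317, 304 and 351 CPM. The gap between groups exceeded the range within either group for Dsc1 and Perp, at -0.55 ± 0.09 and -0.64 ± 0.11 (log2 ± SE; edgeR adjusted p 0.13 and 0.13). Pkp1 was at -0.47 ± 0.11 (adjusted p 0.22).

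Suprabasal markers had 16 of 17 negative differences (median -0.48), 8 at an unadjusted p under 0.05. This list itself holds desmosome genes such as Dsc1, so it is not separate from the junction list. Junction genes of this layer such as Dsc1 separated by group, but the abundant keratins did not. Krt1 was at 1360.0, 2397 and 2437 CPM with saline and 1267, 1135 and 2024 CPM with hCOL3A1, and its partner Krt10 was at 1512, 2441 and 1348 and 1338, 1252 and 1919 CPM. Both ranges overlap, as did those of Flg, the filaggrin gene (-0.28 ± 0.39, log2 ± SE). Cornified envelope genes had 34 of 35 negative differences (median -0.51) but 3 lower and 1 higher at an unadjusted p under 0.05. Tgm3, a transglutaminase that crosslinks the envelope, was at 43.9, 51.2 and 63.4 CPM with saline and 31.8, 33.8 and 27.2 CPM with hCOL3A1, without overlap. The median of this list ranged from -0.84 without UVB_hCOL3A1 2 to -0.13 without UVB_hCOL3A1 1, and was -0.29, -0.32 and -0.30 without UVB_Saline 1, UVB_Saline 3 and UVB_hCOL3A1 3. The lower genes numbered 17 without UVB_hCOL3A1 2. The higher gene was Sprr4, at 2.36, 4.60 and 2.82 and 3.58, 10.3 and 5.61 CPM with overlapping groups.

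Basal keratins turned on 1 library. Krt5 was at 895, 1206 and 1529.7 CPM with saline and 970.2, 976 and 1120.3 CPM with hCOL3A1, and Krt14 at 696, 974 and 2296 and 699, 677 and 1059 CPM. UVB_Saline 3 was the highest library for both, and without it the log2 differences were -0.02 and -0.02 in place of -0.24 and -0.70. Counts of the 3 main collagens per count of Krt5, Krt14, Krt1 and Krt10 were 1.14, 0.780 and 0.689 with saline and 1.48, 1.87 and 1.07 with hCOL3A1, which overlap (two-sided exact permutation p = 0.2). The part of epidermal content in the collagen differences was not tested.

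**Figure D3:**
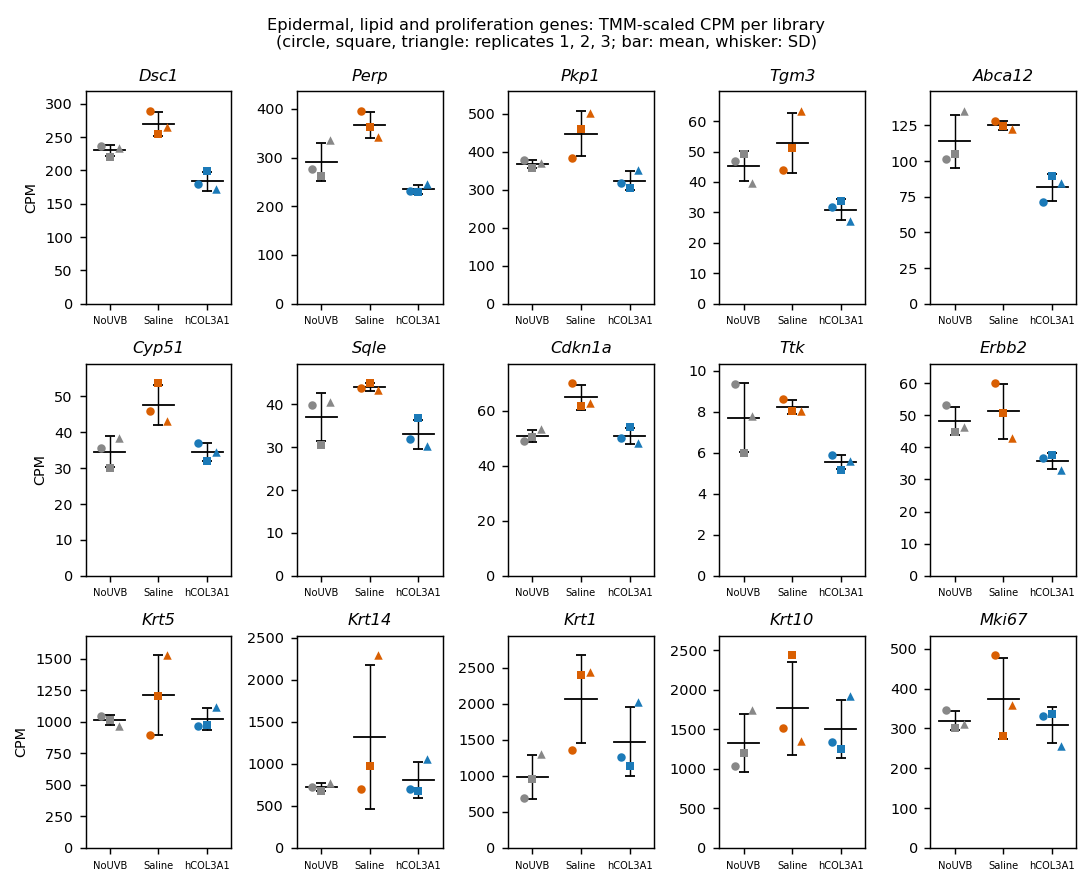
TMM-scaled CPM of 15 epidermal, lipid and proliferation genes in each of the 9 libraries, with the mean and SD per group. Dsc1, Perp, Pkp1, Tgm3, Abca12, Cyp51, Sqle, Cdkn1a, Ttk and Erbb2 are lower in all 3 UVB_hCOL3A1 libraries than in any UVB_Saline library, while Krt5, Krt14, Krt1, Krt10 and Mki67 overlap.

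Lipid genes of the barrier followed the junction genes in part. Abca12, which loads ceramides into lamellar bodies, was at 128, 125 and 122 CPM with saline and 71.2, 89.3 and 84.3 CPM with hCOL3A1, and the ceramide synthase Cers3 was at 16.6, 14.7 and 18.9 and 9.15, 11.5 and 9.39 CPM. Both were lower without overlap (-0.62 ± 0.13 and -0.74 ± 0.15, log2 ± SE; DESeq2 adjusted p 0.011 and 0.02). The whole barrier lipid list had 4 lower and 1 higher of 23 at an unadjusted p under 0.05 (median -0.28, -0.09 without UVB_Saline 2 and -0.16 without UVB_hCOL3A1 3), and 2 lower and 2 higher without UVB_hCOL3A1 1.

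Cholesterol synthesis genes had 21 of 24 negative differences (median -0.24, or -0.14 without UVB_Saline 2), 6 at an unadjusted p under 0.05 (3 without UVB_hCOL3A1 1) and 7 lower in all 3 libraries. Cyp51, the lanosterol demethylase, was at 46, 53.8 and 43 CPM with saline and 37.1, 32.1 and 34.4 CPM with hCOL3A1. Sqle, squalene epoxidase, was at 43.7, 45 and 43.4 and 31.9, 36.8 and 30.2 CPM, and Srebf2, the transcription factor that switches the pathway on, was at 114, 98.2 and 109.9 and 89.4, 95.2 and 86.8 CPM. Each of the 3 was lower in every hCOL3A1 library, by small amounts (-0.46 ± 0.12, -0.42 ± 0.13 and -0.25 ± 0.09, log2 ± SE; edgeR adjusted p 0.25, 0.29 and 0.37). The hCOL3A1 libraries were near non-irradiated skin, where Cyp51 was at 35.5, 30 and 38.4 CPM.

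The promoters of 2 members are shown because most of the list lay lower in the hCOL3A1 libraries. RefSeq windows of GRCm38.p6 matched 17 genes of the list, and capitals mark CCAAT or GGGCGG on either strand in the 120 bases before the start. The stretch of Cyp51 is chr5:4104698-4104817 (- strand) and that of Srebf2 chr15:82147149-82147268 (+ strand).
Cyp51: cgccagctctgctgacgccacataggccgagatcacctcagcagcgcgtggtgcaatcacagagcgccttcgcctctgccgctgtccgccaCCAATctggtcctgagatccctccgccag
Srebf2: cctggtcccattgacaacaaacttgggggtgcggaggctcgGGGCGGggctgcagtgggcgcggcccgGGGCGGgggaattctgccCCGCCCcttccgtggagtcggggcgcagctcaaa
In the 250 bases before the start, CCAAT occurred in 80.0% of 20 windows of this list and in 33.8% of all promoters. GGGCGG occurred in 85.0% and 32.7% in the same order. It was similarly frequent in the procollagen maturation, desmosome and fibrillar collagen lists (85.7% of 7, 80.0% of 10 and 75.0% of 8 windows). The interferon response and complement lists held it in 27.5% of 40 and 21.4% of 14 windows. Windows of a list were those of its tested genes, whereas all promoters also include genes not tested.

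Proliferation and p53 target genes were slightly lower. Mitosis genes had 22 of 25 negative differences (median -0.28, or -0.42 without UVB_Saline 2), 6 at an unadjusted p under 0.05. That count turned on single libraries, at 1 without UVB_Saline 1 or UVB_hCOL3A1 3, 2 without UVB_Saline 3 or UVB_hCOL3A1 2 and 14 without UVB_Saline 2. Ttk, a spindle checkpoint kinase, was at 8.62, 8.06 and 8.02 CPM with saline and 5.87, 5.17 and 5.61 CPM with hCOL3A1, while Mki67, the usual proliferation marker, was at 484, 281 and 359.9 and 332, 336 and 257 CPM. Ttk separated by group and Mki67 did not. Among 24 p53 targets 5 were lower and 0 higher at an unadjusted p under 0.05 (median -0.12, -0.26 without UVB_Saline 1 and -0.02 without UVB_Saline 3). The lower targets numbered 2 without UVB_hCOL3A1 3 and 3 without NoUVB 3 or UVB_hCOL3A1 1, and 2 were higher without UVB_Saline 3. Cdkn1a, the p21 cell cycle inhibitor that UV induces, was at 70.2, 61.7 and 63 CPM with saline, 50.3, 54 and 48.4 CPM with hCOL3A1 and 49.1, 50.5 and 53.4 CPM without UVB. The saline libraries were the high group for Cdkn1a, and the other groups overlapped (log2 -0.35 ± 0.09, edgeR adjusted p 0.23).

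Complement genes, part of innate immunity, were mostly higher with hCOL3A1. Of 22 complement genes, 20 had a positive difference (median 0.58), 13 had an unadjusted p under 0.05, all higher, and 12 were higher in all 3 libraries. DESeq2 called 5. Cfb, factor B of the alternative pathway, was at 13.8, 21.1 and 44.2 CPM with saline and 66.9, 108 and 67.5 CPM with hCOL3A1, against 26.6, 29.3 and 25.4 CPM without UVB. C3ar1, the receptor for the C3a fragment, was at 8.01, 20.6 and 21.8 and 40.4, 44.5 and 34.4 CPM in the irradiated groups. Serping1, the C1 inhibitor, was at 73.2, 90.5 and 151 and 192, 288 and 189.5 CPM. In all 3 genes UVB_Saline 3 was the saline library nearest to the hCOL3A1 range. Log2 differences were 1.62 ± 0.40, 1.24 ± 0.30 and 1.09 ± 0.29 (SE), with edgeR adjusted p-values of 0.25, 0.23 and 0.26. Without UVB_Saline 3 the list median was 1.02, and edgeR called 8 members higher. The count at an unadjusted p under 0.05 was 7 without UVB_hCOL3A1 2 and 8 without UVB_Saline 1.

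Macrophage markers had 20 of 21 positive differences (median 0.69, or 0.39 without UVB_Saline 1), 6 at an unadjusted p under 0.05 and 15 without UVB_Saline 3 against 9.39% of all genes. Their summed level was 405 to 979 CPM with saline and 814 to 1173 CPM with hCOL3A1, so these sums overlap. Pf4, a chemokine of platelets and resident macrophages, was at 3.39, 4.60 and 5.85 CPM with saline and 10.5, 12.8 and 8.96 CPM with hCOL3A1. Cd68, a lysosomal marker of macrophages, was at 12, 28.1 and 27 and 39.6, 66.6 and 40.2 CPM. Both were separated by group, at 1.22 ± 0.26 and 1.12 ± 0.33 (log2 ± SE; DESeq2 adjusted p 0.013 and 0.033). The macrophage chemokine Ccl9 was at 13.9, 21.3 and 22.8 CPM with saline, 34.4, 46.1 and 46.6 CPM with hCOL3A1 and 13.9, 15.4 and 13.9 CPM without UVB, and the 3 hCOL3A1 libraries exceeded all others. The macrophage list itself holds the complement genes C1qa, C1qb and C1qc. The part of macrophage content in the complement and cathepsin differences was not tested.

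**Figure D4:**
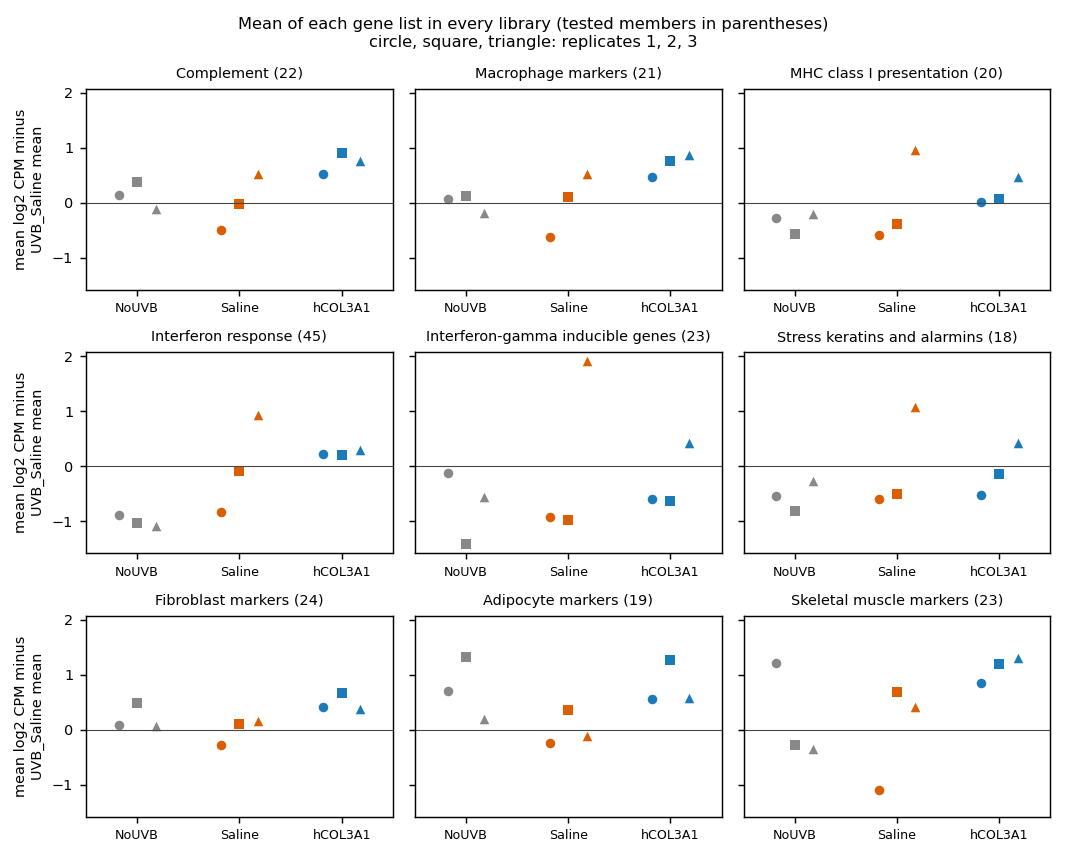
Mean log2 CPM of 9 gene lists in each library, relative to the mean of the 3 UVB_Saline libraries. UVB_Saline 3 is the highest library of all 9 in the interferon, interferon-gamma, MHC class I and stress keratin lists (0.93, 1.90, 0.97 and 1.08), and UVB_Saline 1 is the lowest in the skeletal muscle list (-1.09).

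Interferon genes turned on a single saline library. The interferon response list had a mean, relative to the saline mean, of -0.84, -0.09 and 0.93 in UVB_Saline 1, 2 and 3 and of 0.22, 0.21 and 0.30 in the hCOL3A1 libraries. The hCOL3A1 libraries were close to each other and lay inside a wide saline range. With all libraries 3 of 45 members were higher at an unadjusted p under 0.05 (6.67%, against 5.97% of all genes; median 0.03). Without UVB_Saline 3 there were 27 (against 9.39% of all genes; median 0.70). Without UVB_Saline 1 the median was -0.33, with 3 members lower.

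Irf7, the transcription factor that amplifies interferon output, differed from that pattern. It was at 9.85, 16.2 and 23.3 CPM with saline, 40.6, 58.9 and 33.6 CPM with hCOL3A1 and 6.11, 5.89 and 4.81 CPM without UVB, so all 3 hCOL3A1 libraries exceeded every saline library, replicate 3 included. Its log2 difference was 1.43 ± 0.30 (SE), with an adjusted p of 0.21 in edgeR and 0.0017 in DESeq2. Of the 45 members of the interferon response list, 4 were higher without overlap (8.89%, against 8.95% of all genes). The interferon-stimulated genes Isg15 and Mx1 followed the list instead. Isg15 was at 1.95, 2.80 and 12.8 CPM with saline and 4.57, 3.39 and 4.75 CPM with hCOL3A1, and Mx1 at 2.77, 8.39 and 18.4 and 6.63, 7.81 and 6.26 CPM. UVB_Saline 3 was the highest library for both, and without it their log2 differences turned from -0.44 to 0.84 and from -0.51 to 0.31. The RNA sensor Ifih1 went from 0.08 to 0.81.

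The promoter of Isg15 is shown for a motif that was more frequent in the interferon response list than in all promoters. Capitals mark 3 overlapping matches of GAAANNGAA in the 120 bases before its start, at chr4:156200819-156200938 (GRCm38.p6, - strand).
Isg15: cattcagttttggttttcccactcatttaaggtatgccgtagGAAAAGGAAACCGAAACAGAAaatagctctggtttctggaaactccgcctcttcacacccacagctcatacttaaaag
This motif, searched on both strands, occurred in 42.5% of 40 windows of the interferon response list and in 7.13% of all promoters. Most windows of the list thus lacked it, and a match here too describes letters, not a site in use.

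MHC class I genes had a median of -0.10 with all libraries, -0.31 without UVB_Saline 1 and 0.60 without UVB_Saline 3, when 15 of the 20 were higher at an unadjusted p under 0.05. B2m, the light chain of every class I molecule, was at 345, 399 and 752 CPM with saline and 803, 1279 and 925 CPM with hCOL3A1. H2-T24, a non-classical heavy chain, was at 12.6, 18.7 and 19.7 and 27.9, 33.1 and 30.8 CPM. Both were higher in all 3 hCOL3A1 libraries even against UVB_Saline 3 (DESeq2 adjusted p 0.024 and 0.0034). They were the only 2 of 20 members higher without overlap (10%, against 8.95% of all genes). The same 2 alone had an unadjusted p under 0.05 with all libraries (10%, against 5.97%), and 12 of the 20 differences were negative. Reads may be shared among class I heavy chain genes, which are close copies of each other.

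Interferon-gamma inducible genes and stress keratins were high in UVB_Saline 3. In the first list 22 of 23 differences were negative (median -0.89), and without UVB_Saline 3 the median was 0.83. Cxcl10, a chemokine induced by interferon-gamma, was at 3.90, 4.77 and 33 CPM with saline and 3.20, 3.10 and 7.23 CPM with hCOL3A1. Krt16, a keratin of stressed epidermis, was at 49, 93.2 and 1443 and 46.3, 57.9 and 255 CPM, and its partner Krt6a was at 119, 187 and 928 and 148, 138 and 249 CPM. The third saline library alone was high in each, followed at a distance by UVB_hCOL3A1 3. The direction of the Krt6a and Krt16 differences turned without it, from -1.21 to 0.24 and from -2.14 to 0.77. Il1b was at 1.95, 1.89 and 7.59 CPM with saline and 2.44, 2.35 and 8.85 CPM with hCOL3A1, where replicate 3 was high in both groups. Il6 was below the limit for testing.

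A pair of acute-phase genes from the stress list behaved otherwise. They were the only 2 of its 18 tested members higher without overlap (11.1%, against 8.95% of all genes). As many members were lower without overlap (11.1%, against 8.33%), and 12 of the 18 differences were negative. Lcn2, lipocalin 2, was at 5.95, 5.84 and 3.69 CPM with saline, 16.5, 20.8 and 10.9 CPM with hCOL3A1 and 4.12, 2.95 and 4.33 CPM without UVB. Saa3, serum amyloid A3, was at 0.308, 0.247 and 4.66 and 27.4, 22.7 and 9.07 CPM in the irradiated groups. Both were higher in all 3 hCOL3A1 libraries, at 1.63 ± 0.27 and 3.58 ± 0.86 (log2 ± SE; edgeR adjusted p 0.13 and 0.25). Saa3 was below 1 CPM in UVB_Saline 1 and 2, so its fold change is imprecise, and without UVB_Saline 3 the log2 difference was 6.14.

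**Figure D5:**
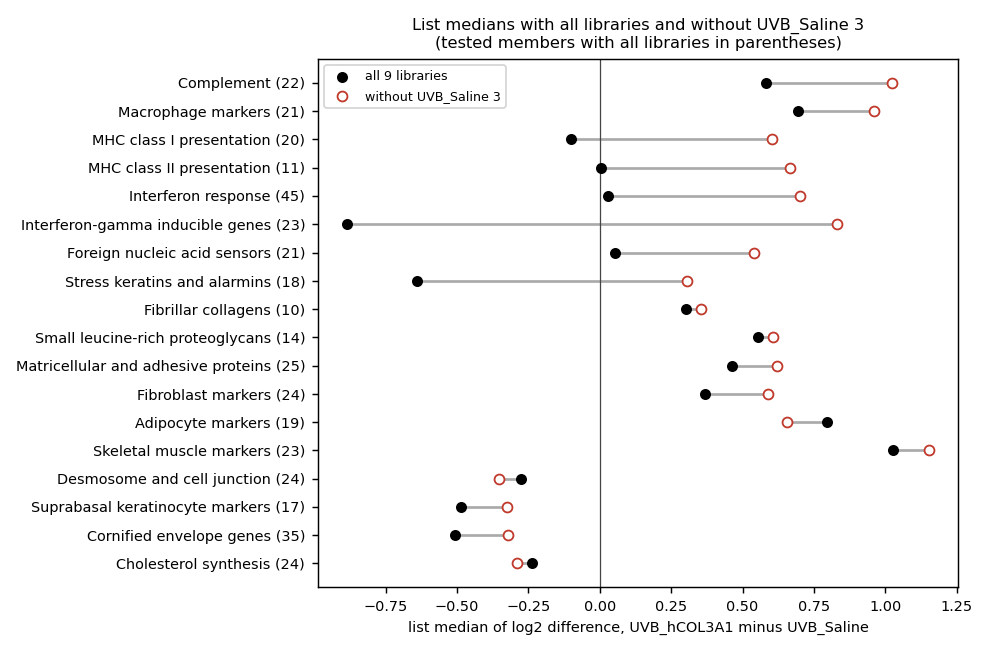
Median log2 difference, UVB_hCOL3A1 minus UVB_Saline, of 18 gene lists with all libraries (filled) and without UVB_Saline 3 (open). The medians of the interferon-gamma, stress keratin and MHC class I lists change sign (from -0.89, -0.64 and -0.10 to 0.83, 0.30 and 0.60), whereas matrix, fibroblast, adipocyte, muscle and epidermal lists keep theirs.

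Sensors of foreign nucleic acid had a median of 0.05, with 2 of 21 at an unadjusted p under 0.05, both higher (9.52%, against 5.97% of all genes). The share higher without overlap was also 9.52%, near the 8.95% of all genes. Without UVB_Saline 3 the median was 0.54, 20 of 21 were positive, 11 were higher at an unadjusted p under 0.05 (against 9.39% of all genes) and edgeR called 1. Without UVB_Saline 1 the median was -0.09. With all libraries the higher pair were the endosomal receptors Tlr7, which detects single-stranded RNA, and Tlr9, which detects DNA. Tlr7 was at 1.54, 5.01 and 5.42 CPM with saline and 10.7, 9.13 and 8.31 CPM with hCOL3A1, and Tlr9 was at 2.67, 5.18 and 7.26 and 9.07, 10.6 and 7.77 CPM. The groups did not overlap for either gene, at 1.23 ± 0.34 and 0.87 ± 0.29 (log2 ± SE; edgeR adjusted p 0.26 and 0.34). Both receptors are carried by immune cells such as macrophages, whose markers are given above, and the part of cell content in these differences was not tested.

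Several genes with the smallest p-values were not named above. Zbtb16, a transcription factor that glucocorticoids induce, was at 16.4, 17.6 and 14.9 CPM with saline, 24.9, 32 and 37.8 CPM with hCOL3A1 and 52.1, 44.8 and 61.7 CPM without UVB, an order in which hCOL3A1 lay between the other groups with no overlap. The circadian repressor Per2 had the same order, at 12.5, 12.9 and 15, 17.4, 26.2 and 21.3 and 31, 32.5 and 35.5 CPM. It was the 1 member of 20 clock genes with an unadjusted p under 0.05 (5%, against 5.97% of all genes higher). It was also the 1 member higher without overlap (5%, against 8.95%). Other genes higher without overlap were Sdc2, Cpxm1, Zfp268, Aebp1, Olfml2b and Gas7, at log2 differences of 0.64 to 1.24. Other genes lower without overlap were Atp13a4, Pla2g4f, Psrc1 (a p53 target counted above), Pcyt2, Limk2, Fat2, Slc16a6, Cracdl and Ifnlr1, at -1.26 to -0.41.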

How the data were processed

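Total RNA from skin was extracted with TRIzol and sequenced as paired reads of 150 bases on an Illumina platform, per the labels' protocols, and sample titles gave each library its group and number. Per the submitters' processing notes the mouse build was GRCm39 and the tools included RSEM 1.3.3, STAR 2.7.11b, DESeq2 1.44.0, fastp 0.23.4 and Bowtie2 2.5.4. What each did, the gene annotation and the handling of strand are not stated there, so a gene and its antisense neighbour cannot be told apart, and reads of near-identical genes may be shared.

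The authors deposited estimated counts for 57180 genes, of which 11.1% to 14.0% of values per library were not whole. They were rounded to whole numbers here. The 525 rows without a symbol held 0.0384% of counts. No libraries were identical, and chi-square per degree of freedom within groups was 8.18 to 250.0.

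Genes were kept by filterByExpr and scaled by TMM in edgeR 4.0.16 (R 4.3.3). The NoUVB, UVB_Saline and UVB_hCOL3A1 groups shared 1 robust quasi-likelihood fit with 6 residual degrees of freedom, and UVB_hCOL3A1 was tested against UVB_Saline, two-sided, with Benjamini-Hochberg adjustment over all 17168 genes. An adjusted p is from this test unless DESeq2 (1.42.0) is named. CPM values are TMM-scaled and differences are log2 with their standard error. The fit was tested on simulated data. Alternatives were other scalings, filters and tools (DESeq2, limma 3.58.1 with voom), a replicate block and leaving out each library.

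The 70 lists and the members were chosen with earlier results of these data known. Named genes are, per direction, the 15 genes without overlap that had the smallest p (average log2 CPM 1 or more, predicted genes left out), up to 5 members per list by p, and a list named whatever their values. For 1 of these genes no result is reported here. Promoter sequences are from RefSeq (GRCm38.p6), and no coordinates are given for the counts.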

Additional observations from a re-analysis of the deposited data

How the results depend on the processing

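Calls at an adjusted p under 0.05 depended on the setting, from 0 genes with edgeR to 16 higher and 14 lower with library size alone, 74 and 32 with no filter, 60 and 14 with a replicate block, 125 and 48 with DESeq2 on all genes and 130 and 49 on the filtered genes. limma voom called 0, with or without quality weights. Leaving out 1 library gave 0 to 71 higher and 0 to 7 lower, with 71 and 7 without UVB_Saline 3 and 1 higher without UVB_Saline 1. Of the 106 calls with no filter, 91 were also DESeq2 calls, and of the 78 calls without UVB_Saline 3, 36 were. At an unadjusted p under 0.05, library size alone gave 397 higher and 311 lower, and leaving out 1 library gave 613 to 1657 higher and 595 to 948 lower, lowest without UVB_hCOL3A1 2. Library size alone moved the median of all genes from -0.02 to -0.09. Whether replicate numbers pair the libraries cannot be told from these values. Deviations of same-numbered saline and hCOL3A1 libraries correlated at 0.17, 0.05 and 0.41. Same-numbered pairs with a NoUVB library correlated at 0.02 to 0.17, and pairs with unlike numbers at -0.39 to 0.26. Not every library correlated best with its own number, as UVB_Saline 1 was at 0.26 with UVB_hCOL3A1 2. A batch shared by number was not tested.

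Of 2602 values of 124 named genes under alternatives, 19 turned direction, in 12 genes. Over the fits that leave out 1 library, log2 differences ranged from -0.012 to 0.38 for Ccn2, from -2.09 to 0.050 for Cxcl10, from -0.28 to 0.81 for Ifih1, from -0.62 to 1.22 for Il1b, from -0.85 to 0.84 for Isg15, from -0.42 to 0.086 for Krt10, from -3.32 to 0.77 for Krt16, from -1.64 to 0.24 for Krt6a, from -0.26 to 1.05 for Mmp13, from -0.94 to 0.31 for Mx1, and from -0.0060 to 0.34 for Pecam1. The sign turned without UVB_Saline 3 for Cxcl10, Isg15, Krt16, Krt6a and Mx1, without UVB_Saline 1 for Ccn2, Ifih1, Il1b, Mmp13 and Pecam1, without UVB_Saline 2 for Ifih1, Il1b and Krt10, and without UVB_hCOL3A1 3 for Il1b and Mmp13. With quality weights in voom Eln was at -0.053, Isg15 at 0.39 and Mmp13 at -0.056, and with voom alone Isg15 was at 0.079. The cause was not tested. In 46 of 70 lists the median kept its sign under every alternative, the fibrillar collagen (0.24 to 0.41), fibroblast (0.31 to 0.59), complement (0.44 to 1.02) and desmosome (-0.35 to -0.20) lists among them. With 3 libraries per group, small differences in genes of a few CPM are not detectable at this depth.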

Other observations

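Mitochondrially encoded genes were mostly lower with hCOL3A1, 11 of 13 with a median log2 difference of -0.41, and 5 had an unadjusted p under 0.05 (background 5.32%). That count was 1 without UVB_Saline 1, UVB_Saline 3, UVB_hCOL3A1 1 or UVB_hCOL3A1 3, 3 without NoUVB 1, NoUVB 2 or NoUVB 3, 8 without UVB_hCOL3A1 2 and 9 without UVB_Saline 2, and the median was -0.27 without UVB_Saline 1. The share of counts outside Rn18s that came from mitochondrial protein genes was 4.81%, 3.11% and 4.08% with saline and 2.84%, 3.84% and 3.03% with hCOL3A1, and these ranges overlap (two-sided exact permutation p = 0.2). mt-Nd4l, a short subunit gene of complex I that lies next to mt-Nd4, was at 57.2, 45.8 and 44.2 CPM with saline and 14.2, 15.9 and 25.6 CPM with hCOL3A1, without overlap (-1.41 ± 0.30, log2 ± SE; DESeq2 adjusted p 0.0015). It was the only 1 of the 13 members lower without overlap (7.69%, against 8.33% of all genes).

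Immunoglobulin transcripts varied widely between the libraries of each irradiated group. Ighm, the heavy chain of IgM, was at 35.6, 9.54 and 114 CPM with saline, 351, 29.7 and 150.5 CPM with hCOL3A1 and 13.8, 14.7 and 11.3 CPM without UVB. Jchain, which joins IgM into polymers, was at 3.08, 0.164 and 14.1 and 30.6, 2.16 and 16.6 CPM in the irradiated groups. UVB_Saline 2 and UVB_hCOL3A1 2 were the lowest library of their group for both genes, and the groups overlapped. Only 6 of 12 B and plasma cell markers could be tested. Their median was 1.59, with 5 of 6 positive and 0 at an unadjusted p under 0.05. The median was 0.76 without UVB_hCOL3A1 1 and 3.23 without UVB_Saline 3, when 4 were higher at an unadjusted p under 0.05.

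Retinoid genes did not share a direction (median -0.02), with 2 higher and 3 lower of 18 at an unadjusted p under 0.05, or 4 and 1 without UVB_hCOL3A1 1. Aox4, an aldehyde oxidase that turns retinal into retinoic acid, was at 47.2, 44.3 and 33.5 CPM with saline, 20.4, 21.4 and 25.4 CPM with hCOL3A1 and 17.3, 12 and 19.9 CPM without UVB. The saline libraries were the highest of the 3 groups and the hCOL3A1 libraries lay between, above every non-irradiated library (-0.90 ± 0.19, log2 ± SE; edgeR adjusted p 0.20).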
